A study of Mus musculus with 18 samples.

Results

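The libraries described here come from regulatory T cells (Treg) whose mice were labelled HDAC1 deletion, set against Treg of the wild-type label. They make up 6 of the 18 RNA sequencing libraries of the series, 3 per group, and were chosen by genotype label alone. The HDAC1 group carries floxed HDAC1 alleles (HDAC1-fl/fl) with a cre recombinase expressed from the Foxp3 locus together with yellow fluorescent protein (YFP), and the wild-type group carries Foxp3YFPcre alone, so both groups carry the cre. The other 12 libraries, used as a second reference, carry the same cre with floxed HDAC2, Dyrk1, Mef2c or Mef2d alleles, 3 libraries each. All mice were males aged 6 to 8 weeks. CD4+ cells were enriched on a column and sorted on YFP, and the series text calls the replicates biologically independent. The growth protocol also speaks of a Rcor1 knockout, which no genotype label carries. The cre is made where Foxp3 is transcribed, which directs the deletion to Foxp3+ cells. Levels are in FPKM, read counts divided by gene length and library depth, a unit inferred from the values, and differences are log2 differences of FPKM + 1 with the standard error (SE) and adjusted p of a limma fit over all 18 libraries.

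Hdac1 encodes a class I histone deacetylase, an enzyme that removes acetyl groups from lysines of histones and other proteins. It works with its close paralog Hdac2 in the Sin3, NuRD, CoREST and MiDAC complexes, which transcription factors recruit to promoters and enhancers. In Treg, deacetylases also act on Foxp3 itself, the transcription factor that defines these cells.

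The wild-type libraries held 18.5 to 20.6 M recovered reads and the HDAC1-labelled ones 18.3 to 21.3 M. In all, 12223 genes reached at least 1 FPKM in at least 3 of the 18 libraries. The cells expressed the markers of their label. Foxp3 was at 92.7, 106 and 87.95 FPKM in wild type and 84.6, 82.5 and 99.3 FPKM in HDAC1-labelled libraries (log2 -0.11, SE 0.10, adjusted p 0.534), and Cd4 was at 243, 237 and 225 against 236, 226 and 233 FPKM. The CD8 gene Cd8a stayed at or below 4.27 FPKM in these 6 libraries. The summed plasma cell markers were higher, at 1775 to 5091 FPKM in wild type and 5564 to 18119 FPKM in HDAC1-labelled libraries, with HDAC1 replicate 2 the highest of the 6. In bulk RNA, fewer cells of a type and less RNA per cell cannot be told apart.

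Hdac1 (ENSMUSG00000028800, chromosome 4, 129516104 to 129542713 of GRCm38, the mm10 assembly) was low in each HDAC1-labelled library and in no other. It was at 117, 118 and 122 FPKM in wild type, at 27.8, 36.5 and 31.6 FPKM in HDAC1-labelled libraries, and at 104 to 128 FPKM in the other 12. The log2 difference was -1.87 (SE 0.07, adjusted p 9.54e-10) from wild type and -1.82 (SE 0.06, adjusted p 2.37e-11) from the other deletion groups. A level over the whole gene also counts exons that are not floxed, so the remaining reads do not measure undeleted cells. Its paralog Hdac2 was at 28.7, 27.7 and 28.4 FPKM in wild type and 30.1, 27.5 and 31.4 FPKM in HDAC1-labelled libraries, groups that overlap (log2 0.06, SE 0.05, adjusted p 0.449). Against the other deletion groups the log2 difference of Hdac2 was 0.13 (SE 0.04, adjusted p 0.0868), which did not pass either.

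A processed pseudogene of Hdac1 moved the other way. Gm10093 (ENSMUSG00000061062, chromosome 17, 78491582 to 78493025) matched the Hdac1 transcript over all of its 1444 bases at 99.4% identity with 9 mismatches. The 90 bases that follow hold 6 of these mismatches, the most of any gap-free stretch of that length within the longest open reading frame. They are shown because gene and copy differ most there, and the rest of the match holds fewer mismatches to separate their reads. The stretch lies at transcript positions 477 to 566 of Hdac1, inside the longest open reading frame (positions 85 to 1533), and capitals mark the bases that differ.
Hdac1: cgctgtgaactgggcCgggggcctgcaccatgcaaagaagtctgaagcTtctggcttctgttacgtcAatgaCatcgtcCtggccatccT
Gm10093: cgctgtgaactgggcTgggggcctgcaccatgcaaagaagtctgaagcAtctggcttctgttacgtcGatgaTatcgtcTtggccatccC
Gm10093 was at 0.859, 0.687 and 0.518 FPKM in wild type and at 5.32, 6.32 and 6.40 FPKM in HDAC1-labelled libraries (log2 2.06). The other 12 libraries held 0.421 to 0.779 FPKM, so the 3 HDAC1-labelled libraries were the highest of all 18. It reached the minimum level for testing only through these 3 libraries, so it had to differ, and its values are a description. How the reads of such near-identical sequences were divided is not given in the sources used here, and the levels of Gm10093 and of Hdac1 are uncertain to that extent.

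A floxed allele is inherited together with the chromosome around it, so genes whose midpoint lies within 20 Mb of that of Hdac1 on chromosome 4 are described apart from all others. Of 344 such genes tested besides Hdac1, 30 rose and 22 fell (15.1%), against 1220 and 260 of 11878 genes elsewhere (12.5%). Over all 12223 genes tested, 12.5% passed, 10.2% upward and 2.32% downward. Falls stood out by size and nearness. Of the 12 genes that fell by 2-fold or more, 6 lay in the window (Ncmap, Hdac1, Sfn, Hmgn2, Zbtb8a and the noncoding RNA Gm28872), although the window holds 345 of the 12223 genes. Within 5 Mb of Hdac1 12 of 126 genes rose and 15 fell (21.4%), between 5 and 10 Mb 8 of 83 rose and 5 fell (15.7%), and between 10 and 15 Mb 4 of 86 rose and 2 fell (6.98%). From 15 to 20 Mb 6 of 49 rose and 0 fell (12.2%). Farther away, 10 of 134 rose and 5 fell between 20 and 30 Mb (11.2%), and 36 of 246 rose and 6 fell beyond 40 Mb (17.1%). On chromosome 4 outside the window 46 of 394 rose and 11 fell (14.5%). By whole chromosome, the share that passed ran from 8.32% (chromosome 3) to 16.7% (chromosome 18). The side of higher coordinates held 18 of the 22 falls and 19 of the 30 rises among its 195 genes. The side of lower coordinates held 4 falls and 11 rises among 149. These shares were not tested against each other, and the count of 52 ranged from 16 (without wild-type replicate 3) to 60 (without wild-type replicate 2) and was 31 when these 6 libraries alone were fitted. With median-of-ratios (RLE) scaling there were 20 up and 32 down, and with length and GC trends removed there were 13 up and 38 down.

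**Figure D1:**
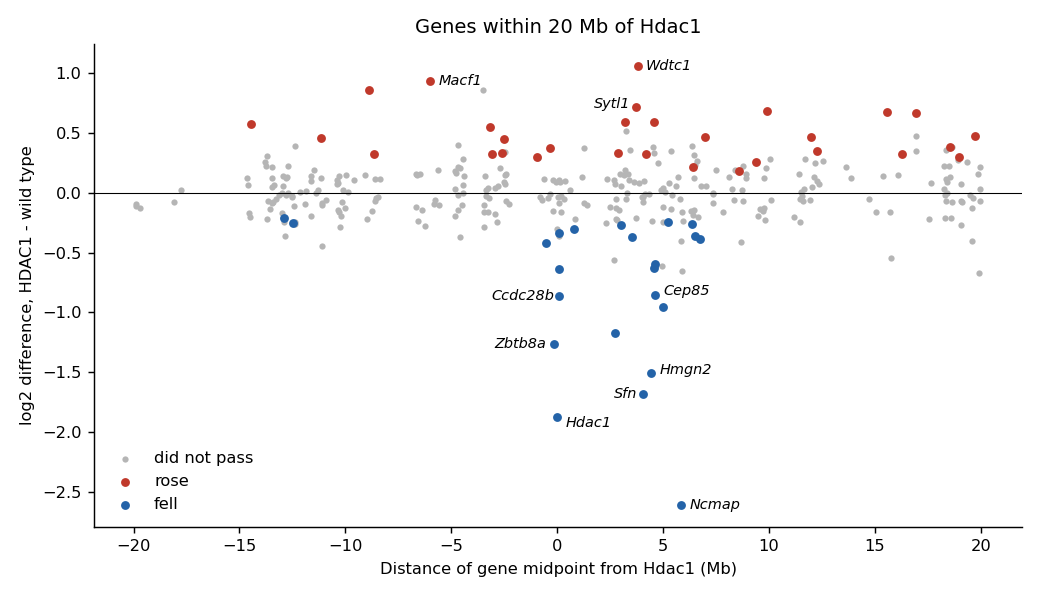
Each point is a gene within 20 Mb of Hdac1, placed by the distance of its midpoint from that of Hdac1 in Mb (x) and by its log2 difference between HDAC1-labelled and wild-type libraries (y, log2 of FPKM + 1, means of 3 libraries). Red genes rose, blue genes fell and grey genes did not pass at an adjusted p of 0.05; Ncmap, at -2.61, is the lowest point, and Wdtc1, at 1.06, the highest.

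The steepest fall near Hdac1 was in Ncmap, which encodes a membrane protein of noncompact myelin. Ncmap (chromosome 4, 135369576 to 135398227) was at 13.3, 12.6 and 11.8 FPKM in wild type and 1.42, 1.01 and 1.24 FPKM in HDAC1-labelled libraries, with 7.38 to 17.1 FPKM in the other 12. The groups do not overlap, and the log2 difference was -2.61 from wild type (SE 0.12, adjusted p 2.39e-09) and -2.45 from the other deletion groups (SE 0.09). Sfn (chromosome 4, 133600556 to 133602168), which encodes the 14-3-3 sigma adaptor protein, was at 28.9, 30.8 and 29.96 FPKM in wild type and 8.39, 9.44 and 8.08 FPKM in HDAC1-labelled libraries. The other 12 libraries held 20.8 to 31.9 FPKM of Sfn, all above the HDAC1-labelled ones (log2 -1.56, SE 0.06, adjusted p 5.88e-11). Both are shown with the 250 bases before their start site, from RefSeq on GRCm38.p6, because these are the neighbours that fell most. Capitals mark a GC box, GGGCGG on either strand, the core of the site that Sp and KLF factors bind. Of the 3 symbols sought, Ncmap and Sfn were found, and Hdac1 was not.
Ncmap, chr4:135398228-135398477, minus strand: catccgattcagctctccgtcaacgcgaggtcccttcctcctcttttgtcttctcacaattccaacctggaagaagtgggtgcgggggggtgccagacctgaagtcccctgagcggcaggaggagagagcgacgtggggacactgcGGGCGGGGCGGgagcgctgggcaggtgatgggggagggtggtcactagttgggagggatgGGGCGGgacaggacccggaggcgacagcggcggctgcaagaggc
Sfn, chr4:133602169-133602418, minus strand: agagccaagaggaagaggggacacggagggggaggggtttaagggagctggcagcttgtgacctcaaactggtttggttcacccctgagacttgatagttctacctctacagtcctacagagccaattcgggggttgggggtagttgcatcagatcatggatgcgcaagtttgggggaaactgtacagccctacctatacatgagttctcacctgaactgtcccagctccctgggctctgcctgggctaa
The Ncmap stretch holds 3 such boxes, a pair of which overlap by a base, and the Sfn stretch holds 0. Of 32851 stretches of this length in the table, 32.7% hold at least 1.

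Hmgn2, a nucleosome-binding protein gene, was at 103, 91.3 and 125 FPKM in wild type and 37.1, 33.9 and 38.3 FPKM in HDAC1-labelled libraries (log2 -1.51, SE 0.12). The other 12 libraries spread widely, at 65.4 to 144 FPKM, yet all lay above the HDAC1-labelled ones. The zinc finger gene Zbtb8a, 0.16 Mb from Hdac1 and too low for the naming rule, was at 1.76, 2.06 and 1.86 FPKM in wild type and 0.212, 0.182 and 0.205 FPKM in HDAC1-labelled libraries (log2 -1.27, SE 0.09). It was named after its values were seen. Ccdc28b and Cep85, which encode proteins linked to cilia and centrosomes, fell by 0.87 and 0.85 on the log2 scale (SE 0.12 and 0.18). Their HDAC1-labelled levels, 5.93, 5.09 and 6.66 FPKM for Ccdc28b and 7.08, 6.03 and 7.90 FPKM for Cep85, lay below each of the other 15 libraries.

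Other falls in the window were smaller. Cd52, a lipid-anchored surface glycoprotein of lymphocytes and one of the most abundant transcripts here, was at 1039.7, 1141 and 1130.4 FPKM in wild type and 636, 776 and 739.5 FPKM in HDAC1-labelled libraries (log2 -0.63, SE 0.17). Its call (adjusted p 0.0313) was lost without any 1 of the 6 libraries. Sh3bgrl3, a small thioredoxin-fold protein gene next to it, fell by 0.59 on the log2 scale (SE 0.13), a call lost without wild-type replicate 3. Against the other deletion groups Cd52 (log2 -0.51) and Sh3bgrl3 (log2 -0.41) passed as well.

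Rises in the window were of 2 kinds when set beside the other deletion groups. Wdtc1, an adaptor of a CUL4 ubiquitin ligase, was at 15.7, 16.01 and 15.96 FPKM in wild type, 35.2, 33.9 and 33.9 FPKM in HDAC1-labelled libraries and 13.9 to 16.5 FPKM in the other 12. Its log2 difference was 1.06 from wild type and 1.12 from the other deletion groups (SE 0.05 and 0.04). Sytl1, a synaptotagmin-like partner of the vesicle GTPase Rab27, was at 18.2, 20.4 and 17.7 FPKM in wild type, 29.4, 32.6 and 32.7 FPKM in HDAC1-labelled libraries and 8.67 to 17.4 FPKM in the other 12. For both genes the 3 HDAC1-labelled libraries were the highest of all 18. Pdzk1ip1, a small membrane protein gene, was also higher than in all others (log2 0.58 from wild type, SE 0.17), a call against wild type that held without wild-type replicate 2 or HDAC1 replicate 2 and was lost without any of the other 4.

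The remaining 3 named rises were shared in level with other deletion groups. Macf1, a linker of actin and microtubules, was at 23.8, 27.9 and 21.97 FPKM in wild type and 47.8, 48.5 and 46.8 FPKM in HDAC1-labelled libraries, while the other 12 ranged over 28.01 to 65.2 FPKM. Its log2 difference was 0.94 from wild type (SE 0.20) and 0.14 from the other deletion groups (SE 0.16, adjusted p 0.775). Macf1 lost its call without wild-type replicate 3 and when length and GC trends were removed. The ubiquitin ligase gene Ubr4 and the lipid transfer gene Vps13d gave 0.69 and 0.67 from wild type and 0.16 and 0.16 from the other groups, and Ubr4 lost its call without HDAC1 replicate 1.

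**Figure D2:**
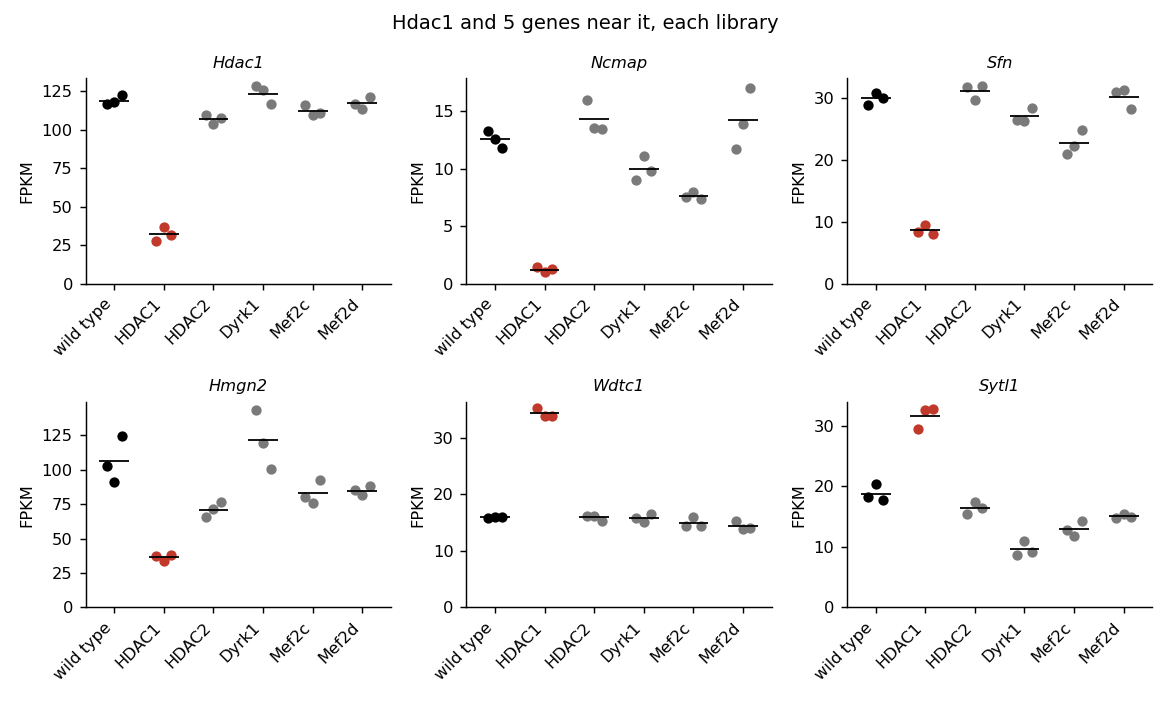
FPKM of Hdac1 and 5 genes near it in each of the 18 libraries (points) with group means (lines), 3 libraries per group on the x axis. The HDAC1-labelled libraries (red) lie below all others for Hdac1, Ncmap, Sfn and Hmgn2 and above all others for Wdtc1 and Sytl1.

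Set against the other 4 deletion groups, which also carry floxed alleles, 673 of 12223 genes passed (5.51%), 3.69% upward and 1.82% downward. In the window, Hdac1 left out, 16 of 344 were higher and 22 lower (11%), against 634 of 11878 outside (5.34%). All 3 HDAC1-labelled libraries lay above the other 12 deletion libraries for 12 of 345 window genes (3.48%), compared with 1.52% of all genes, and below them for 14 (4.06%), compared with 0.646%. Each of the other labels was also compared with wild type, which shares its libraries with the HDAC1 comparison. The share called near Hdac1 and elsewhere was 15.1% and 17.4% for Dyrk1, 24.4% and 25.6% for HDAC2, 14% and 19.1% for Mef2c, and 20.3% and 21.9% for Mef2d. Whether the deletion or variation linked to it underlies the changes near Hdac1 cannot be told apart in these libraries.

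Copies of window genes elsewhere in the genome made up several of the largest changes. Outside the window 42 genes other than antigen receptor segments passed with a change of 2-fold or more, and 41 of them had a transcript to compare. Of these, 8 matched the transcript of a window gene that passed at 90% identity or more over at least 50% of their length. Genes without a change of that size were not searched, so copies that changed less or not at all are not counted. The share of such copies over all genes was not taken. The parents of the 8 are Hdac1, Hmgn2 and Rpl11, the last a ribosomal protein gene that also binds the p53 regulator Mdm2. The largest change in the whole table was in Gm10036, a processed copy of Rpl11 on chromosome 18 with 99.3% identity. Gm10036 was at 2.98, 3.09 and 3.82 FPKM in wild type, 140.1, 204 and 212 FPKM in HDAC1-labelled libraries and 1.90 to 3.67 FPKM in the other 12 (log2 5.42 from wild type, SE 0.19).

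A second Rpl11 copy, Gm10288 on chromosome 3 (99.8% identity), was at 12.3, 10.9 and 10.4 FPKM in wild type and 23.5, 30.5 and 28.6 FPKM in HDAC1-labelled libraries. Rpl11 itself was at 1164, 1199 and 1256 FPKM in wild type and 915, 932 and 971 FPKM in HDAC1-labelled libraries (log2 -0.36, SE 0.11), a call lost without any 1 of the 6 libraries. Among the copies found by this search, which took changed genes only, 3 of Hmgn2 rose and 2 fell, while Hmgn2 itself fell. Gm10182, identical to Hmgn2 over its 273 bases, was at 0.0442, 0.137 and 0.197 FPKM in wild type and 4.34, 2.57 and 4.97 FPKM in HDAC1-labelled libraries. Gm10282 was at 26.2, 22.5 and 30.4 and 62.1, 51.7 and 59.4 FPKM and Gm10357 at 6.61, 5.33 and 7.36 and 17.4, 11.9 and 18.5 FPKM, in the same order, so all of these rises were present in each library. Hmgn2-ps1 (log2 -1.15, SE 0.26) and Gm6750 (log2 -1.07, SE 0.31) were lower. Gm10182, like Gm10093, was tested only because of its level in the HDAC1-labelled libraries, so passing is no support for either. The other 6 also passed in the same direction against the other deletion groups, which share the HDAC1-labelled libraries. Like Hdac1 and Gm10093 over their whole match, copy and parent differ at few bases, so these levels are uncertain, and whether reads of parent genes are counted at the copies was not tested.

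**Figure D3:**
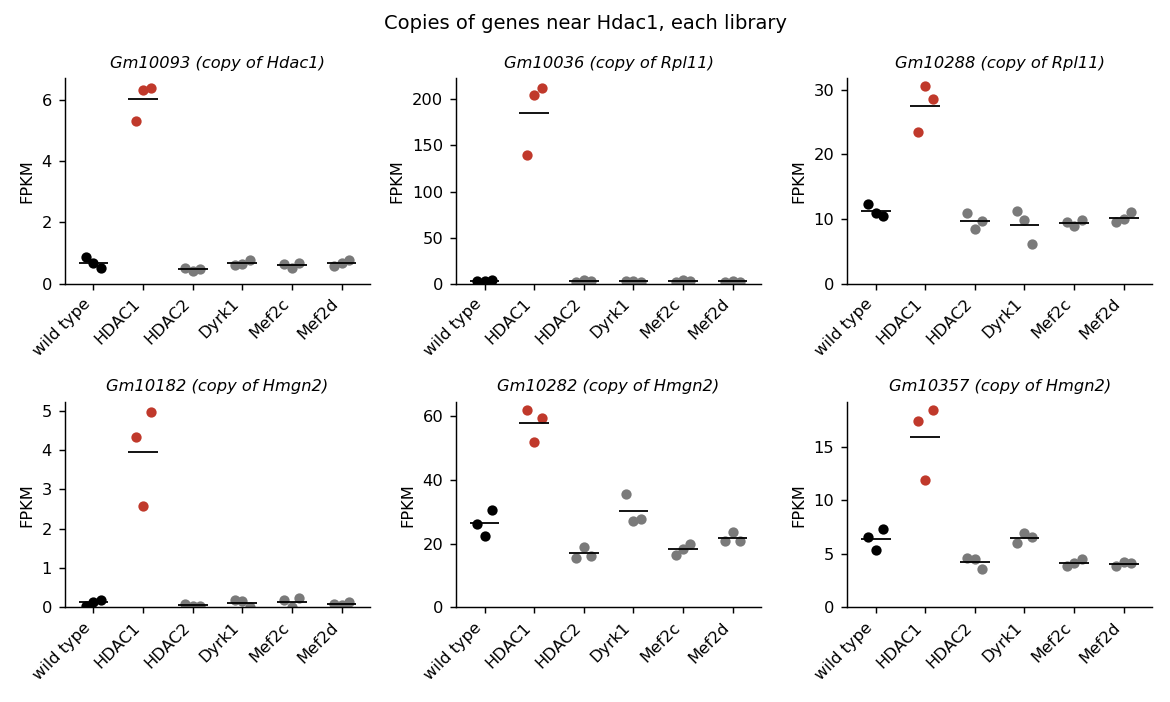
FPKM of near-identical copies of Hdac1, Rpl11 or Hmgn2 in each of the 18 libraries (points) with group means (lines), 3 libraries per group. Shown are the 6 that rose of the 8 copies found among changed genes. In each panel the 3 HDAC1-labelled libraries (red) lie above the other 15.

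Outside the window, rises outnumbered falls, with 1220 genes up (10.3%) and 260 down (2.19%). That split depends on scaling, being 808 up and 617 down with RLE scaling and 541 up and 639 down with length and GC trends removed. RLE scaling moved the median of all genes by -0.05 on the log2 scale and removal of the trends moved it by -0.08. Leaving out wild-type replicate 3 took the total of 1480 to 404, and leaving out wild-type replicate 1 took it to 894. It was 534 and 796 when HDAC1 replicate 1 or HDAC1 replicate 2 was the library left out. Rises of 2-fold or more numbered 108, of which 72 were immunoglobulin or T cell receptor gene segments. Of 209 immunoglobulin segments tested 43 rose and 0 fell, and of 75 T cell receptor J segments 28 rose and 0 fell. Against the other deletion groups 30 and 2 of these were higher and 0 and 1 lower, and the median log2 difference of the J segments was 0.34 there and 1.23 from wild type. T cell receptor V segments did otherwise, with 2 of 99 up and 8 down. Among 10434 protein-coding genes outside the window 1074 rose and 230 fell, 18 and 2 of them by 2-fold or more.

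Rises were more frequent among long genes. In the quintile of genes with the longest exonic sequence (median 9345 bases) 564 of 2362 rose and 14 fell, whereas 141 of 2363 rose and 59 fell in the shortest quintile (median 912 bases). The median log2 difference from wild type was 0.15 in the longest quintile and -0.01 in the shortest, and the difference from the other deletion groups was 0.02 and 0.05. In single libraries, the centred log2 level of the longest quintile minus that of the shortest was -0.06, -0.17 and -0.23 in wild-type replicates 1, 2 and 3. It was 0.10, -0.04 and -0.02 in HDAC1-labelled replicates and -0.14 to 0.27 over the other 12 libraries. The part of RNA quality or library preparation in this was not tested.

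**Figure D4:**
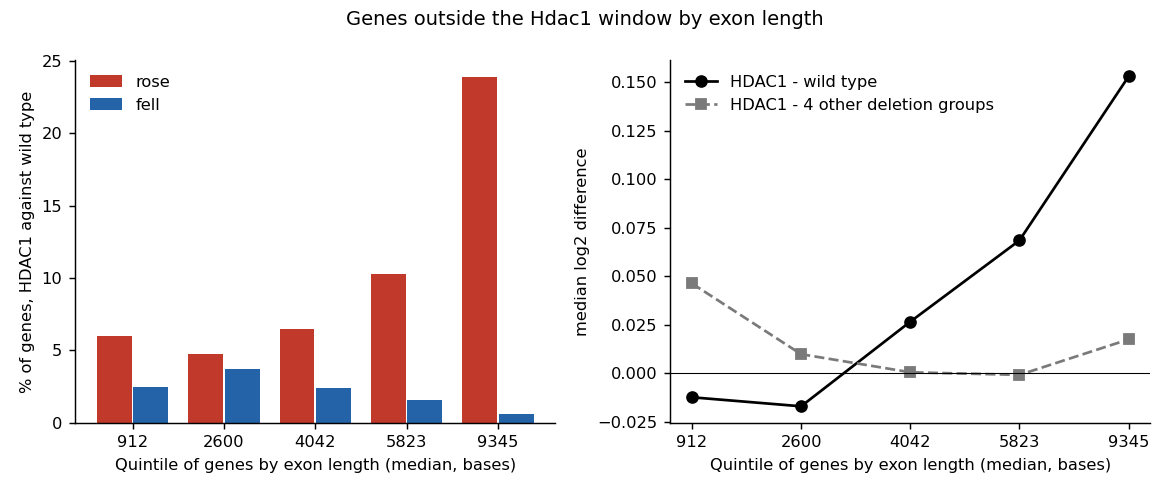
Genes outside the Hdac1 window in quintiles of exonic length, with the median length in bases on the x axis. Left, percent of genes that rose (red) or fell (blue) in HDAC1-labelled against wild-type libraries; right, the median log2 difference from wild type (solid line) and from the 4 other deletion groups (dashed line). Against wild type the median climbs to 0.15 in the longest quintile, while against the other groups it is 0.02 there.

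Some genes for chromatin enzymes rose, where 10.2% of all genes tested rose and 2.32% fell. Of 20 histone H3K4 and H3K36 methyltransferases and their partners 9 rose and 0 fell, of 13 histone acetyltransferases 5 rose and 0 fell, and of 24 chromatin remodeller genes 9 rose and 0 fell, so 34 of these 57 did not pass. Kmt2a, the MLL1 methyltransferase, was at 16.1, 16.7 and 14.1 FPKM in wild type and 36.9, 32.6 and 35.2 FPKM in HDAC1-labelled libraries (log2 1.11, SE 0.19, adjusted p 0.00396). Kmt2c, the MLL3 enzyme that methylates enhancers, was at 9.55, 11.2 and 7.94 and 20.6, 20.96 and 21.3 FPKM (log2 1.06, SE 0.16). Kmt2d (log2 0.80), the H3K36 enzyme gene Nsd1 (log2 0.57), Ash1l (log2 0.56), Setd1b (log2 0.40), Kmt2b and Kmt2e (log2 0.38 each) and Setd2 (log2 0.22) made up the rest.

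Among acetyltransferases the coactivator genes Ncoa2 (log2 0.46, SE 0.07) and Ncoa1 (log2 0.44, SE 0.08) rose, as did Kat6a (log2 0.44), Kat6b (log2 0.31) and Ep300 (log2 0.42), which encodes p300, the enzyme that acetylates H3K27. Remodellers that rose included Chd7 (log2 0.57, SE 0.12), mutated in CHARGE syndrome, Chd9 (log2 0.51), and the histone-exchange ATPases Srcap (log2 0.53) and Ep400 (log2 0.50). The call of Srcap was lost without any 1 of the 6 libraries and with RLE scaling. Those of Chd9 and Ep400 were lost without HDAC1 replicate 1 or wild-type replicate 3, and that of Chd7 without HDAC1 replicate 1. Of the 18 Polycomb and DNA methylation genes 2 rose, among them Tet2 (log2 0.45), beside 10.2% of all genes. Ezh2 (log2 -0.41), the H3K27 methyltransferase of Polycomb, fell. Its groups overlapped, at 34.8, 27.5 and 41.2 FPKM in wild type and 25.5, 22.8 and 27.8 FPKM in HDAC1-labelled libraries, and its call was lost without HDAC1 replicate 1, HDAC1 replicate 2, wild-type replicate 1 or wild-type replicate 3 and in the 6 libraries alone. The rise of Tet2 was lost without HDAC1 replicate 1 or wild-type replicate 3 and with length and GC trends removed.

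The median exonic length of the methyltransferase genes that rose was 14838 bases, against 8383 for those that did not pass. It was 14273 against 4188 bases for acetyltransferases and 14300 against 7777 for remodellers. With length and GC trends removed 5 methyltransferases, 2 acetyltransferases and 1 remodeller passed upward. Against the other deletion groups 0 of these 57 genes passed in limma, beside 5.51% of all genes, and 2 were higher at an unadjusted p under 0.05. The level of Kmt2a in the other 12 libraries was 23.3 to 46.1 FPKM, which takes in the HDAC1-labelled range. Without wild-type replicate 3 the rises numbered 4, 2 and 2, and without HDAC1 replicate 1 they numbered 5, 2 and 1, for methyltransferases, acetyltransferases and remodellers in turn, while Kmt2a, Kmt2c, Nsd1, Ncoa1 and Ncoa2 passed whichever library was left out. Under RLE scaling 2 acetyltransferase genes and 1 remodeller gene were lower.

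Of 48 class I deacetylases and subunits of their corepressor complexes 7 rose and Hdac1 fell, beside 12.5% of all genes, with a median log2 difference of 0.08 beside 0.05 for all genes. The risen members were the corepressor Ncor1, at 42.8, 41.998 and 35.9 FPKM in wild type and 57.9, 53.2 and 52.2 FPKM in HDAC1-labelled libraries (log2 0.43, SE 0.10), Gse1 (log2 0.35), Elmsan1 (log2 0.35), a subunit of the MiDAC complex, Arid4b (log2 0.33), Arid4a (log2 0.32), Rcor1 (log2 0.25) and Sin3a (log2 0.21). Without wild-type replicate 3 or HDAC1 replicate 1 only 1 of them passed. Against the other deletion groups the NuRD subunit genes Mta1, Mbd2 and Gatad2a were higher and Hdac1 alone was lower, beside 3.69% and 1.82% of all genes. Of 14 other deacetylases, Sirt1, a NAD-dependent enzyme, rose from 8.08, 6.87 and 7.43 FPKM to 11.9, 10.8 and 9.86 FPKM (log2 0.48, SE 0.10), as did Hdac11 (log2 0.38), which lost its call without 5 of the 6 libraries in turn.

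Of 20 Treg identity genes 2 rose and 2 fell, beside 12.5% of all genes that passed. Ikzf2, which encodes Helios, rose from 51.1, 50.6 and 40.6 FPKM in wild type to 71.9, 62.6 and 69.3 FPKM (log2 0.51, SE 0.13), and Entpd1 (CD39) rose (log2 0.46). Tnfrsf4, the costimulatory receptor OX40, fell (log2 -0.48, SE 0.13), and so did the actin-capping gene Capg (log2 -0.33). All 4 lost their calls without wild-type replicate 3, and 0 of them passed against the other deletion groups. Il2ra, the high-affinity interleukin-2 receptor chain, was at 137, 145 and 129.6 and 143, 126 and 159 FPKM, which overlap (log2 0.05, SE 0.09, adjusted p 0.766). Of 23 effector Treg genes Maf alone rose against wild type (log2 0.67, SE 0.19), a call lost without 4 of the 6 libraries in turn, with RLE scaling and with trends removed. Higher than in the other deletion groups were 4 of the 23, Tgfb1, Gzmb, Klrg1 and Fgl2, beside 3.69% of all genes. Of 15 genes of resting T cells Ccr7, Klf2 and Igfbp4 fell and Txk rose, the last lost without 3 of the 6 libraries in turn. Ccr7, the lymph node homing receptor, was at 219.9, 213 and 183 FPKM in wild type and 136, 146 and 149.5 FPKM in HDAC1-labelled libraries (log2 -0.51, SE 0.16, adjusted p 0.0471), and these 3 falls were lost without any 1 of the 6 libraries.

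Of 16 genes of the Th1 programme 5 rose, 0 fell and 11 did not pass, beside 10.2% of all genes that rose. The median log2 difference of the 16 was 0.44, beside 0.05 for all genes. Tbx21, the Th1 regulator T-bet, was at 3.94, 3.29 and 5.27 FPKM in wild type and 9.97, 11.3 and 6.83 FPKM in HDAC1-labelled libraries (log2 1.00, SE 0.26, adjusted p 0.022). The interleukin-18 receptor Il18r1 (log2 0.54), Il12rb1 (log2 0.41) and Stat4 (log2 0.34) were among the rest, and Il12rb1 lost its call without any 1 of the 6 libraries. The Th1 count was 2 when HDAC1 replicate 1, HDAC1 replicate 2 or wild-type replicate 3 was left out. Against the other deletion groups 0 of 16 passed in limma, with 1 higher and 1 lower at an unadjusted p under 0.05. Tbx21 kept its call when the third replicate of either group was left out, and lost it otherwise.

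Havcr2, the inhibitory receptor TIM-3, was the single rise among 11 checkpoint receptors, where 10.2% of all genes rose. In the other 12 libraries Havcr2 was at 1.11 to 2.89 FPKM, below all 3 HDAC1-labelled values of 5.39, 3.76 and 4.87 FPKM, with a log2 difference of 1.00 (SE 0.09, adjusted p 7.04e-06) from those groups. Among 20 genes of adhesion and homing 5 rose and 2 fell, beside 10.2% and 2.32% of all genes. The gut-homing receptor Gpr15 was at 7.33, 6.20 and 6.40 FPKM in wild type and 9.34, 15.8 and 10.4 FPKM in HDAC1-labelled libraries, with replicate 2 the highest (log2 0.72, SE 0.18). That rise was lost without HDAC1 replicate 2 or wild-type replicate 3. Itgav (log2 0.29) and Gpr183 (log2 0.37), which guides lymphocytes along oxysterol gradients, rose, as did Itga4, and Selplg and S1pr4 fell. With 1 library left out the rises ranged from 2 to 5 and the falls from 0 to 4. Gpr183 lost its call without 4 of the 6 libraries in turn, with RLE scaling, with trends removed and in the 6 libraries alone, while Itga4 passed whichever library was left out.

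Of 8 Th17 genes 0 passed against wild type in limma, with 4 higher at an unadjusted p under 0.05. In the comparison with the other deletion groups 4 were higher, beside 3.69% of all genes. The difference between these 2 comparisons was not tested. The interleukin-1 receptor Il1r1 (log2 0.84), Tmem176a (log2 0.75) and Tmem176b (log2 0.80) were among the 4. Of 8 gamma-delta T and NKT cell markers 3 rose against wild type, beside 10.2% of all genes. In the comparison with the other groups 5 were higher, beside 3.69% of all genes. The 3 calls were 0 in limma without HDAC1 replicate 1, HDAC1 replicate 2, wild-type replicate 1 or wild-type replicate 3, with 3, 4, 5 and 3 higher at an unadjusted p under 0.05. Tcrg-C2, a T cell receptor gamma constant region, was at 16.4, 17.9 and 14.4 FPKM in wild type and 27.99, 30.9 and 21.5 FPKM in HDAC1-labelled libraries, and the summed markers ranged from 62.4 to 121 FPKM and from 111 to 163 FPKM. The part of such cells in the Th17 and Th1 values was not tested.

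Plasma cell genes rose in 4 of 9 cases, beside 10.2% of all genes. Igha, the IgA constant region, was at 432, 1136 and 319 FPKM in wild type and 1510.0, 4732 and 1724 FPKM in HDAC1-labelled libraries, but the other 12 spanned 149.7 to 8545 FPKM. Tnfrsf17, the plasma cell receptor BCMA, was at 0.833, 1.48 and 0.927 and 1.81, 4.32 and 1.95 FPKM. When HDAC1 replicate 2, wild-type replicate 1 or wild-type replicate 3 was left out, 0 of the 9 passed in limma, with 4, 5 and 5 higher at an unadjusted p under 0.05. Of the markers of B cells (10 genes), CD8 T and NK cells (11), myeloid cells (11), erythroid cells and platelets (6) and stromal cells (4), 0 passed in limma, and 2, both of the CD8 T and NK list, were higher at an unadjusted p under 0.05. The protease inhibitor Slpi, the largest named rise outside the window, was at 2.21, 9.01 and 4.50 FPKM in wild type and 14.1, 31.9 and 16.3 FPKM in HDAC1-labelled libraries (log2 1.87, SE 0.57, adjusted p 0.0449). In both groups replicate 2 was highest for Slpi, Igha and Tnfrsf17. Slpi lost its call without 5 of the 6 libraries in turn, wild-type replicate 2 being the exception.

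Of the 15 named rises outside the window, 4 also passed against the other deletion groups, among them Tspoap1, Spock2 and Abca1, and all 4 passed in every fit with a library left out. Tspoap1, which encodes a RIM-binding protein, was at 3.50, 2.65 and 2.40 FPKM in wild type and 10.98, 15.98 and 10.7 FPKM in HDAC1-labelled libraries (log2 1.80, SE 0.23), with 0.776 to 15.8 FPKM in the other 12. Spock2, an extracellular matrix proteoglycan gene, was at 9.22, 7.16 and 9.19 FPKM in wild type, 17.8, 16.8 and 19.1 FPKM in HDAC1-labelled libraries and 4.69 to 15.5 FPKM in the other 12. The cholesterol exporter gene Abca1 was at 2.65, 2.17 and 1.82, 4.91, 5.22 and 5.42 and 2.05 to 4.75 FPKM in the same order. For Spock2 and Abca1 the HDAC1-labelled libraries were the highest of all 18. Asb2, a subunit of a ubiquitin ligase of haematopoietic cells (log2 1.14), Lyst (log2 1.12), the interferon-inducible GTPase Iigp1 (log2 0.98) and the giant scaffold gene Ahnak (log2 0.95) rose against wild type in every fit with a library left out, and gave log2 differences of 0.34, 0.16, 0.17 and 0.13 from the other groups, which did not pass. The ubiquitin ligase gene Rnf213 (log2 1.03), Gprin3 (log2 1.02) and Vasn (log2 1.00), which encodes a TGF-beta-binding protein, lost their calls without wild-type replicate 3 (Gprin3 and Vasn) or without wild-type replicate 1 or HDAC1 replicate 1 (Rnf213).

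Falls outside the window were shallower. Txnip, which binds thioredoxin and restrains glucose uptake, was at 394, 412 and 295 FPKM in wild type and 99.3, 189.8 and 152 FPKM in HDAC1-labelled libraries (log2 -1.35, SE 0.38, adjusted p 0.0315), and its call was kept only without HDAC1 replicate 2. The adherens junction gene Ctnna1 (alpha-catenin) was at 15.1, 13.2 and 14.9 FPKM in wild type, 10.4, 8.22 and 8.75 FPKM in HDAC1-labelled libraries and 11.9 to 18.1 FPKM in the other 12. Snx9, an endocytic sorting nexin gene, was at 7.32, 7.90 and 8.88, 5.41, 4.70 and 4.46 and 6.82 to 12.1 FPKM in the same order. These were the 2 named falls that passed against the other deletion groups (log2 -0.63 and -0.68), though Snx9 lost its call against wild type without wild-type replicate 3.

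Adk, adenosine kinase, was at 23.7, 25.6 and 25.7 FPKM in wild type and 17.6, 16.2 and 18.4 FPKM in HDAC1-labelled libraries (log2 -0.50, SE 0.11), and passed in every fit with a library left out. The neurofilament gene Nefh (log2 -0.70), Prr7 (log2 -0.56) and the calcium-binding protein gene Tesc (log2 -0.47) lost their calls without wild-type replicate 3 alone. Apol9b (log2 -0.63), the membrane protein gene Itm2a (log2 -0.62), the actin-severing gene Dstn (log2 -0.59), the cell cycle phosphatase Cdc25b (log2 -0.48) and the apoptosis gene Siva1 (log2 -0.47) lost theirs without wild-type replicate 3 and without at least 2 others. Igfbp4, which binds insulin-like growth factors, fell by 0.50 (SE 0.15) on the log2 scale.

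Of 40 cell cycle genes 0 passed in limma, with 6 lower at an unadjusted p under 0.05 and a median log2 difference of -0.25, but 19 were lower without wild-type replicate 2. Stmn1, a microtubule regulator of dividing cells, was at 108, 71.7 and 141 FPKM in wild type and 71.5, 52.3 and 80.2 FPKM in HDAC1-labelled libraries, which overlap (adjusted p 0.0753), and Mki67 was at 21.2, 13.4 and 23.96 and 24.2, 17.8 and 25.9 FPKM. Of 45 nuclear genes of oxidative phosphorylation 6 fell, among them the complex I gene Ndufa9 (log2 -0.25), and 0 rose. Of 38 cytosolic ribosomal protein genes 6 fell, among them Rplp0 (log2 -0.36, SE 0.09). Over all genes 2.32% fell. With RLE scaling 12 and 19 of these lists fell, and without wild-type replicate 3 limma called 0 in either list, with 7 and 13 lower at an unadjusted p under 0.05. Rplp0 was higher than the mean of the other deletion groups (log2 0.30, adjusted p 0.0174), at 2235, 2003 and 2137 FPKM in HDAC1-labelled libraries. The Mef2c and Mef2d libraries held 1207 to 1432 FPKM of it. The HDAC2 and Dyrk1 libraries held 2032 to 2432 FPKM, which overlaps the HDAC1-labelled values. Of 18 glycolytic genes Pfkp rose (log2 0.24), a call lost without 4 of the 6 libraries in turn, with a log2 difference of -0.0126 once length and GC trends were removed, and Eno1 fell, from 374, 344 and 401 to 304, 274 and 294 FPKM (log2 -0.36, SE 0.07).

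Of 24 cell cycle inhibitors and p53 targets, Rbl2 (log2 0.36), a retinoblastoma family member, and Mdm2 (log2 0.26) rose against wild type, beside 10.2% of all genes. Set beside the mean of the other deletion groups, 5 were lower and 0 higher, where 1.82% of all genes were lower. The 5 were Cdkn1b (p27), Trp53inp1, Ccng1, Bbc3 (PUMA) and Btg2. Over the 26 listed genes the mean log2 level was 3.88 to 3.94 in HDAC1-labelled libraries and 4.13 to 4.28 in Dyrk1 libraries. It was 3.73 to 3.95 in HDAC2, Mef2c and Mef2d libraries. The part of the Dyrk1 group in these 5 was not tested. Of 12 BCL2 family genes and 21 early T cell receptor-induced genes 0 passed against wild type in limma, with 1 and 5 higher and 2 and 2 lower at an unadjusted p under 0.05. Of 9 follicular T cell genes and 12 mitochondrially encoded genes 0 passed in limma, with 1 and 0 higher and 1 and 3 lower at that level. Of 23 interferon-stimulated genes Stat2 (log2 0.48) and Ddx58 (log2 0.34), the RIG-I sensor gene, rose and 0 fell, a share below the 10.2% of all genes that rose. That count was 4 without wild-type replicate 2. It was 0 in limma without HDAC1 replicate 1, wild-type replicate 1 or wild-type replicate 3, with 2, 2 and 6 higher at an unadjusted p under 0.05, and 0 in the 6 libraries alone, with 3. Of 7 Th2 genes Il4 rose, at 1.66 to 4.51 FPKM in the other 12 libraries and 3.26, 4.04 and 3.41 FPKM in the HDAC1-labelled ones, which those take in.

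**Figure D5:**
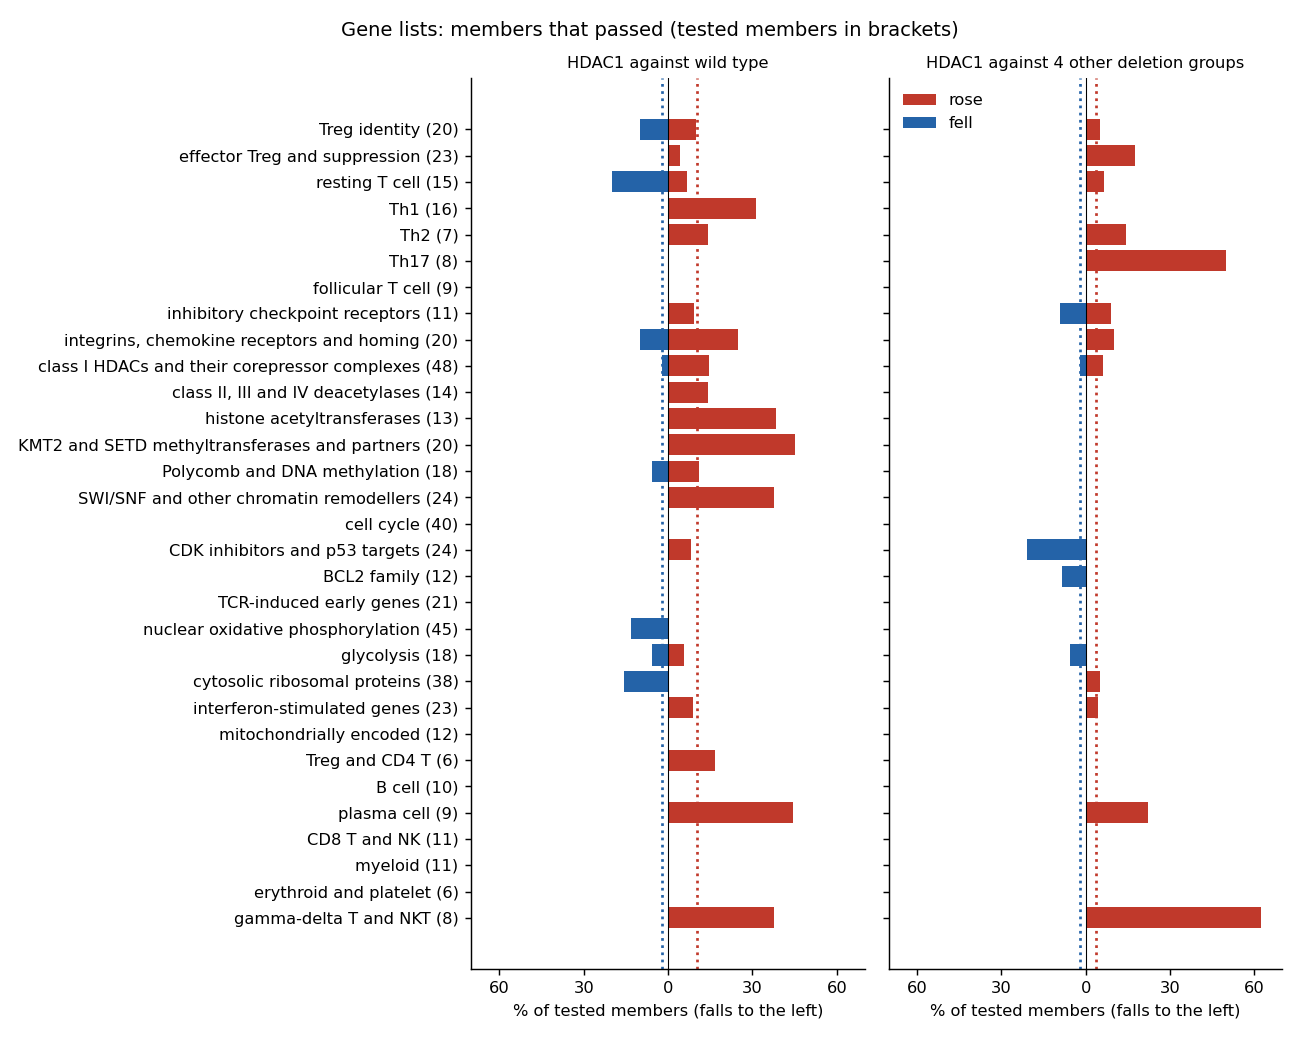
Percent of the tested members of each gene list that rose (red, to the right) or fell (blue, to the left), with the number tested in brackets and the share over all genes as dotted lines. Left, HDAC1-labelled against wild-type libraries, where methyltransferase and plasma cell genes lead; right, against the 4 other deletion groups, where the methyltransferase list is at 0 and Th17 and gamma-delta T genes lead.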

How the data were processed

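RNA sequencing reads were aligned to mm10 with STAR and counted with HTSeq, per the submitters' processing notes, which give no versions, strand setting or annotation release. The table deposited by the authors holds 35275 Ensembl identifiers, of which 34490 have a symbol and 785 have none. Its unit is not named. The deposited values were treated as FPKM because low values, multiplied by annotated exonic length and a factor per library, peaked at whole reads. Among identifiers at about 1 to 20 reads, 48.2% to 52% per library came within 0.03 of a whole read. The authors' gene lengths are not given in the sources used here, and the recovered depths rest on that peak. Positions and exonic lengths are from GENCODE M21.

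From these, log2(FPKM + 1) was fitted in R 4.3.3 with limma 3.58.1, as 6 group means across the 18 libraries, with 12 residual degrees of freedom and a variance trend. A gene entered the test if 3 or more libraries reached 1 FPKM, and p-values were adjusted by Benjamini-Hochberg over all 12223 genes, at a threshold of 0.05. Fold changes understate changes of low genes. The fit was tested on simulated data. Named genes outside the window are the 15 largest rises and falls, and inside it the 8 largest falls and 6 largest rises, among genes that passed, reached a mean of 5 FPKM in the higher group and had groups that did not overlap. That rule skipped clone-like symbols, antigen receptor segments and genes of the Y chromosome. From each list, at most 4 members that passed were named too, or up to 2 as values where none passed, and further members are named where a count is described. Some genes that these rules name are not reported here. Copies of window genes that passed were sought with blastn 2.17.0. The search took only genes outside the window that passed with a change of 2-fold or more, antigen receptor segments aside. The members, lists and tests were chosen with earlier results of these data known. Lists are described by counts, with no test of the list. Alternatives were other scalings, filters, pseudocounts, window sizes, a replicate block, the 6 libraries alone, and each library left out in turn. The number of libraries, 3 per group, limits the precision.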

Additional observations from a re-analysis of the deposited data

How the results depend on the processing

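The 1480 calls outside the window became 900 when only these 6 libraries were fitted and 982 with length and GC trends removed together with a replicate block, and ranged from 404 to 1652 with 1 library left out. The 52 calls inside it, Hdac1 aside, became 31 in the 6 libraries alone and ranged from 16 to 60 with 1 library left out. The 673 calls against the other deletion groups ranged from 323 to 657, the lowest without HDAC1 replicate 3. The other alternatives, among them windows of 10 and 40 Mb and no filter, kept these counts within 1.5 times. Of 98 named genes that passed, 31 did so with any 1 library left out, 36 without wild-type replicate 3 and 88 with RLE scaling. The direction of Pfkp turned with length and GC trends removed, to a log2 of -0.0126 with and without the block. The main fit did not pair libraries by replicate number. Deviations from the group means correlated at 0.30, 0.46 and 0.07 between same-numbered HDAC1-labelled and wild-type libraries. Between differently numbered ones the correlations ran from -0.38 to 0.18. Whether same-numbered libraries share a batch was not tested, and the replicate block gave 1343 calls outside and 47 inside. Values near 1 FPKM rest on few reads where the gene is short, and tested genes outside the window were as short as 10 bases.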

Other observations

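Some genes below the naming level were low in all 15 other libraries and higher with the HDAC1 label. They were picked after their values were seen, as protein-coding genes outside the window that passed in limma against wild type and against the other deletion groups with all 3 HDAC1-labelled libraries beyond the other 12. That rule sets no level beyond the minimum for testing. It holds for 67 higher and 10 lower of the 10434 protein-coding genes outside the window, among them Gm10282, the Hmgn2 copy of uncertain level. Of all 12223 genes, 1.52% had the 3 HDAC1-labelled libraries above the other 12 deletion libraries and 0.646% had them below. The 2 comparisons share the HDAC1-labelled libraries. Of the 67, 9 reached the minimum level for testing only through the HDAC1-labelled libraries, Stag3 and Ryr2 among them, so their passing is no support. Stag3, a cohesin subunit gene used in meiosis, was at 0.218, 0.312 and 0.220 FPKM in wild type, 2.64, 3.57 and 2.65 FPKM in HDAC1-labelled libraries and 0.118 to 0.541 FPKM in the other 12. The cardiac calcium channel gene Ryr2 was at 0.496, 0.526 and 0.693, 2.21, 1.63 and 2.20 and 0.00576 to 1.01 FPKM in the same order, and the integrin subunit gene Itgb5 at 1.30, 1.56 and 1.17, 4.08, 3.95 and 3.79 and 0.793 to 2.08 FPKM. Among better expressed genes, Ide, the insulin-degrading enzyme, was at 20.3, 18.8 and 19.9 FPKM in wild type, 38.97, 34.2 and 36.1 FPKM in HDAC1-labelled libraries and 15.6 to 26.9 FPKM in the other 12. Mmp14, a membrane-bound matrix protease, rose by a log2 difference of 0.92 (SE 0.14), and Epas1, which encodes the hypoxia factor HIF-2 alpha, by 0.87 (SE 0.14). The costimulatory ligand gene Cd80 was at 1.40, 1.80 and 1.52 FPKM in wild type and 2.61, 2.54 and 3.98 FPKM in HDAC1-labelled libraries. Among the falls, Ryk, a Wnt coreceptor gene, was at 3.35, 3.03 and 3.20 and 1.85, 1.96 and 1.74 FPKM, and Sqle, a cholesterol synthesis enzyme gene, at 6.35, 5.83 and 7.23 and 5.53, 4.85 and 4.86 FPKM.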
